A study of Mus musculus with 10 samples.

Results

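The respiratory chain genes of tumour macrophages were followed across 10 bulk RNA-seq libraries as 96 genes, 89 carried in the nucleus and 7 on the mitochondrial genome, out of 14374 genes tested and 55359 gene identifiers counted. Members were chosen by symbol: names beginning Ndufa, Ndufb, Ndufc, Ndufs, Ndufv, Sdh (a to d), Uqcr, Cox4 to Cox8 and Atp5, and the mitochondrial mt-Nd, mt-Co, mt-Cytb and mt-Atp genes. These names took in 120 identifiers, of which 13 pseudogenes were dropped and 11 (5 nuclear, 6 mitochondrial) stayed under a mean of 1 CPM, counts per 1000000 counts of the TMM-scaled library. Just inside that minimum stood Cox6b2 at 1.91 CPM, and just outside it Ndufa4l2 at 0.394 CPM. The prefix Ndufa also takes in Ndufaf1 to Ndufaf8, factors that build complex I without staying in it, and these 8 are kept apart below as assembly factors. All 96 members passed the filter on low counts.

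The macrophages were sorted by their surface marker F4/80 from Braf-mutant melanomas of male mice that had regrown on daily Braf and Mek inhibitors, all at the resistant or rebound stage. The 5 control libraries came from mice with an RFP allele on 1 chromosome (Ccr2RFP/+) and the 5 knockout libraries from mice with it on both (Ccr2RFP/RFP), and each genotype is numbered 1 to 5 as in the titles. Control mice are thus heterozygous, although their titles abbreviate them as wild type. Ccr2 is the receptor by which inflammatory monocytes leave the marrow, and the comparison asks how macrophages of resistant tumours differ without it. The labels do not say that each library came from its own animal, so the p-values here speak only for the spread among samples, part of which may be technical. In bulk RNA, fewer cells of a type and less RNA per cell cannot be told apart.

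The respiratory chain moves electrons from NADH through complex I, and from succinate through complex II, to coenzyme Q, then through complex III and cytochrome c to oxygen at complex IV. Complexes I, III and IV pump protons out of the mitochondrial matrix, and complex V, the ATP synthase, makes ATP as they flow back. The nuclear genome encodes most subunits and all of complex II, while the mitochondrial genome encodes a few core subunits of the other complexes and is copied into long RNAs that are cut into single messages. In macrophages, inflammatory activation is known to lower oxidative phosphorylation and alternative activation to depend on it.

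Ccr2 itself checked the labels. Its level was 59.0, 89.6, 142, 130 and 177 CPM in control libraries 1 to 5 and 3.23, 6.28, 4.33, 3.64 and 6.13 CPM in knockout libraries 1 to 5, with no overlap. Macrophage markers were abundant in every library: the 12 listed, among them Adgre1, which encodes F4/80, summed to between 29295 and 34622 CPM in controls and between 30913 and 39557 CPM in knockout libraries. Counts in genes ran from 34639808 to 43360206 per library. Knockout library 1 stood apart from the rest, as described with the nuclear members, and the sums, sign counts and medians of nuclear members are given with and without it.

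No respiratory chain member differed between the genotypes at an adjusted p under 0.05, by edgeR's quasi-likelihood test with Benjamini-Hochberg adjustment over all 14374 genes. That is 0 of 89 nuclear and 0 of 7 mitochondrial members, where 1.41% of all genes passed (0.87% higher and 0.543% lower in knockout). At an unadjusted p under 0.05 the counts were 4 nuclear and 4 mitochondrial members, where 15.3% of all genes passed. The nuclear ones were Sdhc, Atp5a1 and Ndufaf7 on the higher side, which held 8.05% of all genes, and Ndufb3 on the lower side, which held 7.28%, and the mitochondrial ones, mt-Nd2, mt-Nd4, mt-Nd5 and mt-Cytb, were all on the lower side. DESeq2, which called 5.7% of all genes, called 0 nuclear members and 1 mitochondrial member, mt-Nd4, and limma-voom, which called 3.1%, called 0 of either. The CPM ranges of the 2 genotypes overlapped for all 96 members, where 4.7% of all genes had ranges apart.

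The median of the mitochondrial members lay below 0, and that of the nuclear members lay close to 0. All 7 mitochondrial members had a negative log2 fold change, knockout over control, with a median of -0.33 and a range from -0.52 to -0.12. Among nuclear members 62 were positive and 27 negative, with a median of 0.04 and a range from -0.33 to 0.59. Over all genes tested the median was -0.00 and 49.5% were positive. Such signs are not independent, since many members shifted together by library and mitochondrial messages are cut from shared RNAs. The mean log2 CPM of nuclear members was 5.97 ± 0.03 in control and 6.01 ± 0.16 in knockout libraries (SD), and values overlapped. For mitochondrial members the mean was 8.13 ± 0.17 and 7.80 ± 0.25, also overlapping. The nuclear median was 0.12 with 73 positive without knockout library 1, and 0.01 with 49 positive without knockout libraries 4 and 5. Whether the 2 sets of members differ from each other was not tested, because a score over chosen members carries no valid p.

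**Figure D1:**
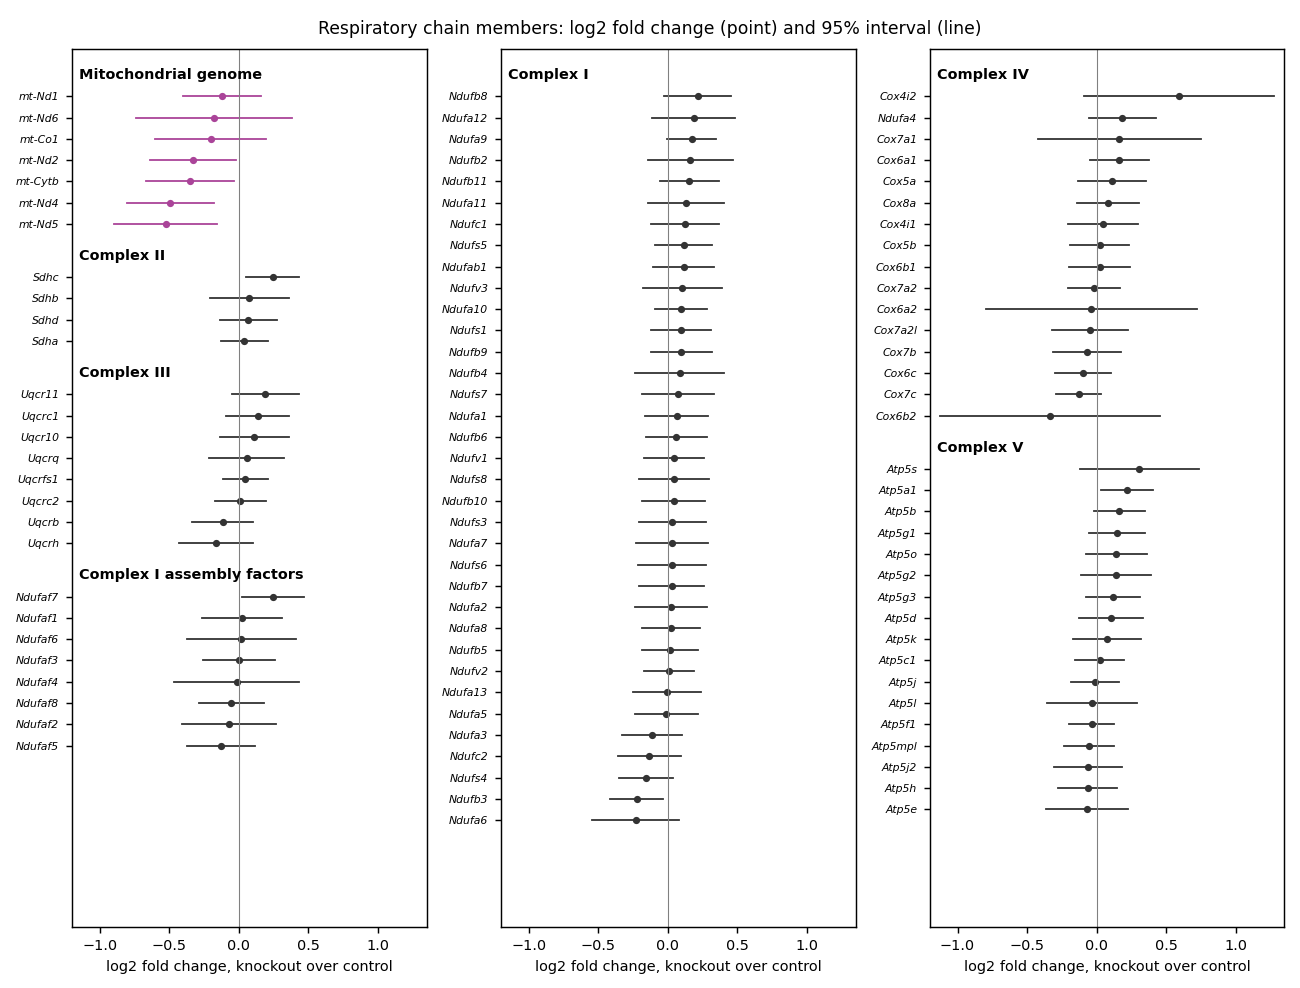
Log2 fold change of 95 of the 96 members, Ccr2 knockout over control (point), with its 95% interval from edgeR (line), 5 libraries per genotype. Mitochondrial members (purple) run from -0.52 to -0.12, and nuclear members (black) lie on both sides of 0, with the widest intervals at the sparsely expressed Cox6b2, Cox6a2, Cox4i2 and Cox7a1.

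Summed within each library, the 2 sets gave the following levels. The 7 mitochondrial members together made up 0.718%, 0.783%, 0.646%, 0.569% and 0.543% of the scaled library size in control libraries 1 to 5 and 0.686%, 0.643%, 0.508%, 0.399% and 0.519% in knockout libraries 1 to 5. Knockout libraries 3, 4 and 5 lay below every control, and knockout libraries 1 and 2 lay among them. The 89 nuclear members summed to 0.977%, 0.965%, 1.02%, 0.957% and 1.003% in control and to 0.858%, 1.05%, 1.09%, 1.12% and 1.02% in knockout libraries. Knockout library 1 was the lowest of all 10, and knockout libraries 2, 3 and 4 were above every control. The ratio of the mitochondrial to the nuclear sum was 0.662 ± 0.109 in control and 0.548 ± 0.168 in knockout libraries (SD, n = 5 each), or 0.485 over knockout libraries 2 to 5. Its values overlapped: knockout library 1, at 0.80, was higher than every control but library 2, at 0.811.

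**Figure D2:**
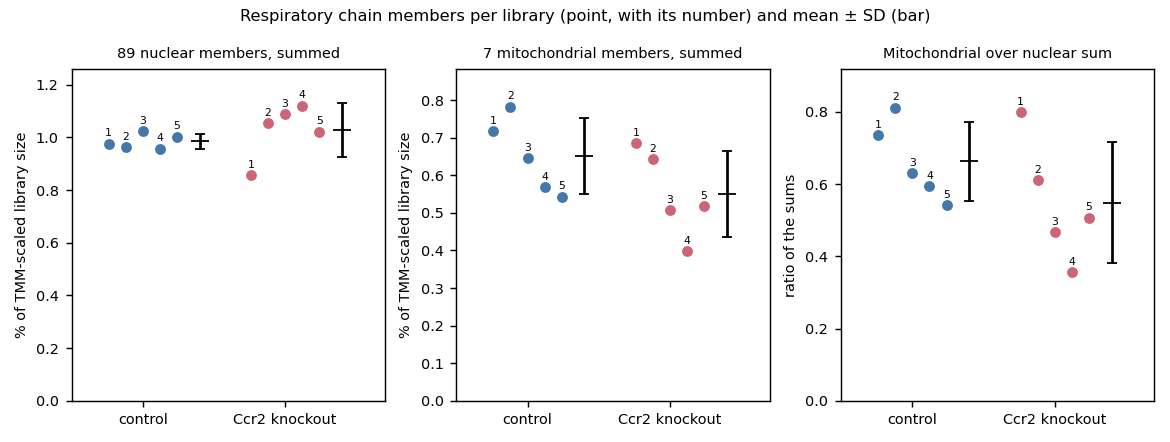
Summed CPM of the nuclear members (left) and the mitochondrial members (middle), as a percentage of the TMM-scaled library size, and their ratio (right), one point per library with its number, and the mean ± SD of 5 libraries as a bar. The mitochondrial sum of knockout libraries 3, 4 and 5 lies below all controls, and knockout library 1 is the lowest in the nuclear sum and the second highest in the ratio.

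Of the 13 protein-coding messages of the mitochondrial genome, only 7 could be followed. The other 6, mt-Co2, mt-Atp8, mt-Atp6, mt-Co3, mt-Nd3 and mt-Nd4l, lie side by side and held at most 2 counts each over all 10 libraries. The nuclear genome carries copies of this stretch of mitochondrial DNA, and reads that match several places were listed as 0 in every library. In the GENCODE transcripts, 100% of the 50-base windows of mt-Co2 also occur in another gene, the pseudogene Gm28661 on chromosome 1, and the share was 99.5% for mt-Atp6, 99.9% for mt-Co3, 98.0% for mt-Nd3 and 98.8% for mt-Nd4l. For mt-Atp8, which overlaps mt-Atp6, no shared window was found in the transcripts. Among the 7 messages counted, shared windows made up 62.2% of mt-Nd4, 51.1% of mt-Co1, 8.19% of mt-Nd2 and 7.61% of mt-Nd5, and 0% of mt-Nd1, mt-Nd6 and mt-Cytb. The levels of mt-Nd4 and mt-Co1 are therefore uncertain, and no count of a mitochondrial message is a measure of the complex V subunits mt-Atp6 and mt-Atp8.

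**Figure D3:**
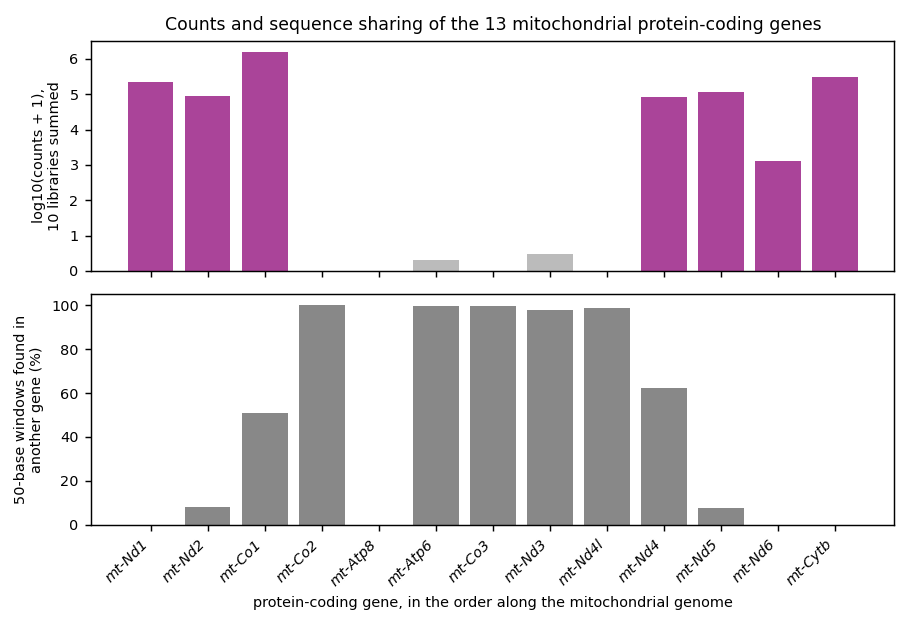
The 13 protein-coding genes in their order along the mitochondrial genome: counts summed over 10 libraries as log10(counts + 1) (top) and the percentage of 50-base windows also found in another annotated gene (bottom). The 6 genes without purple bars held 0 to 2 counts, and 5 of them shared between 98.0% and 100% of their windows.

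Per kilobase of exon, mt-Co1, the catalytic subunit of complex IV, stood highest of all members at 2564 CPM per kb over 10 libraries. It was followed by mt-Cytb, the electron-carrying core of complex III, at 673 and mt-Nd1, a membrane subunit of complex I, at 592 CPM per kb. The other complex I subunits had lower levels, mt-Nd2 at 220, mt-Nd5 at 153 and mt-Nd4 at 148 CPM per kb. The level of mt-Nd6 was 6.11 CPM per kb. Its message is the one made from the opposite strand and is known to carry little poly(A) tail, and these libraries were made from poly(A)-enriched RNA. The median nuclear member had 56.2 CPM per kb, with a range from 1.16 (Ndufb2) to 367 (Cox4i1). Here all annotated exons of a gene are joined, 5628 bases for Ndufb2. Where that exceeds the length of the message, the level per kb comes out too low.

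The lowest adjusted p among members belonged to mt-Nd4, a proton-pumping membrane subunit of complex I. Control libraries 1 to 5 held 253, 299, 237, 201 and 205 CPM of it, and knockout libraries 1 to 5 held 175, 210, 142, 147 and 175 CPM. Knockout libraries 1, 3, 4 and 5 were below every control, and knockout library 2 lay just above control libraries 4 and 5. The means were 239 ± 39.9 and 170 ± 27.3 CPM, -0.49 ± 0.14 (SE) as a log2 fold change (edgeR adjusted p = 0.124, unadjusted 0.00509), and DESeq2 gave an adjusted p of 0.0351. A neighbouring pump subunit, mt-Nd5, stood at 355, 368, 340, 301 and 285 CPM in controls and 233, 330, 178, 177 and 228 CPM in knockout libraries. Again all knockout libraries but library 2 were below every control. For mt-Nd5 the log2 fold change was -0.52 ± 0.17 (SE, edgeR adjusted p = 0.163), and with 1 library left out at a time it ran from -0.68 to -0.43. The value of -0.68 came without knockout library 2, the knockout library among the controls (edgeR adjusted p = 0.0340, in a fit that called 1.63% of all genes). Leaving that library out could only strengthen the difference. The value of -0.43 came without knockout library 4 (edgeR adjusted p = 0.321).

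A further 2 mitochondrial members, mt-Cytb and mt-Nd2, had 95% intervals that left out 0. For mt-Cytb, control libraries held 890, 1036, 864, 731 and 793 CPM and knockout libraries 873, 725, 571, 542 and 670 CPM. Knockout library 1 sat among the controls and the other 4 below them (log2 fold change -0.35 ± 0.14 SE, edgeR adjusted p = 0.279). For mt-Nd2, also a membrane subunit of complex I, the values were 255, 294, 261, 238 and 226 CPM in controls and 173, 273, 167, 183 and 218 CPM in knockout libraries. Here knockout library 2 sat among the controls and the other 4 below them (log2 fold change -0.33 ± 0.14 SE, edgeR adjusted p = 0.301).

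The remaining mitochondrial members differed less than their spread. The most abundant, mt-Co1, measured 4827, 5136, 4164, 3673 and 3391 CPM in controls and 4711, 4330, 3568, 2462 and 3347 CPM in knockout libraries. Only knockout libraries 4 and 5 fell outside the control range (log2 fold change -0.20, 95% interval from -0.60 to 0.20), and with 1 library left out at a time the value ran from -0.31 to -0.07, the last without knockout library 4. With mt-Nd1, at 589 ± 65.5 CPM in controls and 543 ± 93.4 CPM in knockout libraries, the log2 fold change was -0.12 (95% interval from -0.40 to 0.16, and from -0.22 to -0.05 with 1 library left out at a time). Knockout library 1 had 691 CPM of mt-Nd1, next to the highest control at 692 CPM. The sparse mt-Nd6 had 3.37 ± 0.565 and 2.97 ± 1.03 CPM, and knockout libraries 2 and 5 were above all controls while libraries 1 and 3 were below them.

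**Figure D4:**
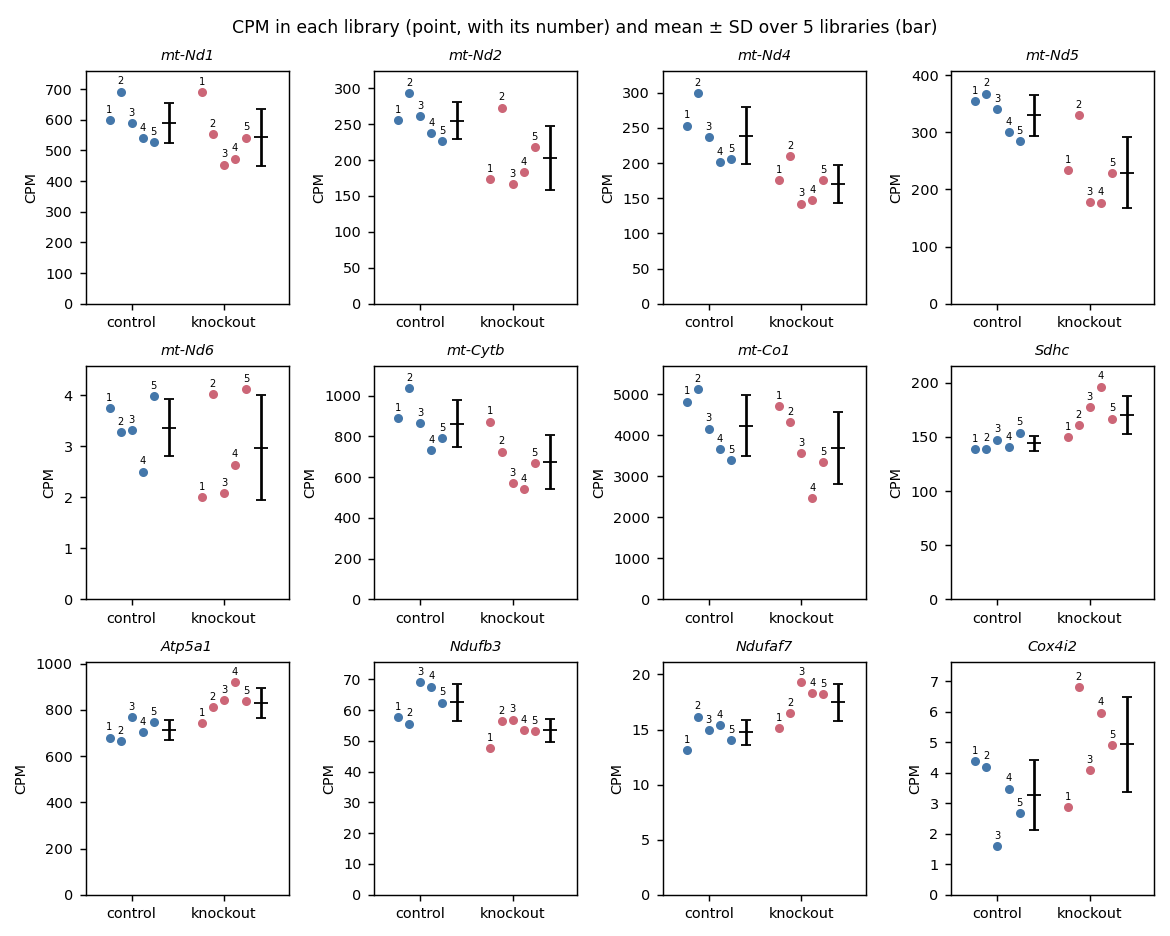
CPM of the 7 mitochondrial members and of 5 nuclear members in each library (points with the library's number), with the mean ± SD of 5 libraries per genotype (bars), each axis starting at 0. The 4 mitochondrial messages with an interval that left out 0 have 1 knockout library each among the controls, library 2 for mt-Nd2, mt-Nd4 and mt-Nd5 and library 1 for mt-Cytb.

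Intervals of nuclear members were narrow by comparison, but the sets were not matched for level, on which the width of an interval depends. Members had to reach a mean of 1 CPM, which not all genes tested did. The 95% interval of the fold change lay within 1.5-fold in either direction for 84 of 89 (94.4%), against 47% of all genes tested and 1 of 7 mitochondrial members. By complex, 36 of 36 subunits of complex I, 4 of 4 of complex II, 8 of 8 of complex III, 12 of 16 of complex IV, 16 of 17 of complex V and 8 of 8 assembly factors had such an interval. Their median standard error was 0.10 on the log2 scale, against 0.14 for mitochondrial members and 0.18 over all genes tested.

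Complex I, the NADH dehydrogenase and the largest complex, had 36 nuclear members, 29 with a positive and 7 with a negative log2 fold change (median 0.05). Ndufb3, an accessory subunit of the membrane arm, was the only nuclear member on the lower side at an unadjusted p under 0.05. Its values were 57.8, 55.6, 69.1, 67.7 and 62.5 CPM in controls and 47.6, 56.5, 56.9, 53.5 and 53.1 CPM in knockout libraries. Knockout libraries 2 and 3 lay between the 2 lowest controls and the other 3 below them (log2 fold change -0.22 ± 0.09 SE, edgeR adjusted p = 0.255). The accessory subunit Ndufa9, which sits where the matrix and membrane arms meet, went the other way, at 102 ± 2.93 and 115 ± 10.7 CPM (log2 fold change 0.17, edgeR adjusted p = 0.340). Ndufc2, another membrane arm subunit and the second most abundant nuclear member of the complex by CPM, had a log2 fold change of -0.13 (edgeR adjusted p = 0.557).

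Of the assembly factors, 4 were positive and 4 negative. Ndufaf7, a methyltransferase that acts during assembly, had 13.2, 16.2, 14.9, 15.4 and 14.0 CPM in controls and 15.1, 16.5, 19.3, 18.3 and 18.2 CPM in knockout libraries. All knockout libraries but library 1 were above every control (log2 fold change 0.25 ± 0.10 SE, edgeR adjusted p = 0.283). Ndufaf5, at 8.82 ± 0.692 and 8.06 ± 0.438 CPM, had a log2 fold change of -0.13 (edgeR adjusted p = 0.6), and Ndufaf3, at 19.0 ± 1.37 and 19.0 ± 2.85 CPM, one of 0.00.

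All 4 subunits of complex II, succinate dehydrogenase, which also works in the citric acid cycle, had positive values with a median of 0.07. Sdhc, a membrane anchor of the complex, had 139, 139, 148, 140 and 154 CPM in controls and 150, 161, 177, 196 and 167 CPM in knockout libraries. Knockout library 1 lay among the controls and the other 4 above them. Its log2 fold change, 0.24 ± 0.09 (SE, edgeR adjusted p = 0.208, unadjusted 0.0171), had the lowest p of any nuclear member. The flavoprotein Sdha (255 ± 18.9 and 262 ± 10.1 CPM), the iron-sulfur subunit Sdhb (171 ± 14.1 and 180 ± 32.9 CPM) and the other anchor Sdhd (130 ± 10.1 and 136 ± 13.6 CPM) had log2 fold changes of 0.04, 0.08 and 0.07.

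Complex III had 8 nuclear members, 6 positive and 2 negative. Its core proteins Uqcrc1 (211 ± 8.08 and 232 ± 33.1 CPM) and Uqcrc2 (145 ± 2.13 and 146 ± 15.0 CPM) had log2 fold changes of 0.13 and 0.01. For Uqcrc1, knockout library 1 was below every control at 183 CPM and the other 4 above every control, between 227 and 276 CPM. The small subunits Uqcr11 and Uqcrh had log2 fold changes of 0.19 and -0.16 (edgeR adjusted p = 0.431 and 0.536).

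Complex IV, cytochrome c oxidase, had 16 nuclear members, 9 positive and 7 negative, among them several pairs of subunit forms known from different tissues. The general form Cox4i1 had 559 ± 38.9 CPM in controls and 578 ± 90.7 CPM in knockout libraries. Its counterpart Cox4i2, known from lung and from cells short of oxygen, had 4.38, 4.20, 1.60, 3.48 and 2.67 CPM in controls and 2.88, 6.81, 4.08, 5.97 and 4.91 CPM in knockout libraries. Knockout libraries 2, 4 and 5 were above every control. This was the largest fold change of any member, 0.59 on the log2 scale, and its 95% interval from -0.09 to 1.27 was among the widest (edgeR adjusted p = 0.387). Per kilobase, Cox4i1 stood at 367 and Cox4i2 at 5.20 CPM.

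In the other pairs, too, the first form stood above its counterpart. Cox6a1 had 238 CPM per kb and its heart and muscle form Cox6a2 6.78, Cox6b1 had 305 and the testis form Cox6b2 1.73, and Cox7a2 had 106 and the muscle form Cox7a1 9.65. Cox7a2l, which joins complexes III and IV into larger assemblies, had 120 CPM per kb, and the second form of Cox8a, Cox8b, held no count. Log2 fold changes were 0.16 for Cox6a1, -0.04 for Cox6a2, 0.02 for Cox6b1, -0.33 for Cox6b2, -0.02 for Cox7a2, 0.16 for Cox7a1, -0.05 for Cox7a2l and 0.08 for Cox8a, with no adjusted p under 0.44. Cox7c, a small subunit, had 117 ± 3.39 CPM in controls and 107 ± 7.76 CPM in knockout libraries (log2 fold change -0.13, edgeR adjusted p = 0.431). Ndufa4, named for complex I but counted here with complex IV, where it is now placed, had 72.7 ± 8.92 and 82.6 ± 9.09 CPM (log2 fold change 0.18, edgeR adjusted p = 0.440).

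Complex V had 17 nuclear members, 10 positive and 7 negative (median 0.07). The subunits of its catalytic head were the most abundant nuclear members by CPM. Atp5a1, the alpha subunit, had 679, 663, 770, 704 and 746 CPM in controls and 742, 811, 842, 920 and 837 CPM in knockout libraries. Knockout library 1 lay among the controls and the other 4 above them (log2 fold change 0.22 ± 0.08 SE, edgeR adjusted p = 0.244). Atp5b, the catalytic beta subunit, had 831 ± 28.6 and 931 ± 84.8 CPM (log2 fold change 0.16, edgeR adjusted p = 0.379). Atp5g1, Atp5g2 and Atp5g3, which encode the same ring protein that turns as protons pass, had log2 fold changes of 0.15, 0.14 and 0.12, and 38.3% of the windows of Atp5g2 also occur in other genes. The inhibitor of ATP synthase, listed under its older symbol Atpif1 and so outside the members, had 119 ± 10.1 and 134 ± 12.6 CPM (log2 fold change 0.17, edgeR adjusted p = 0.397).

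Much of the spread among nuclear members came with 1 library. In knockout library 1, 86 of 89 nuclear members lay below their mean over the 10 libraries and 61 had their lowest value. Their median deviation there was -0.27 on the log2 scale, against a range from -0.05 to 0.16 in the other 9 libraries. It was -0.32 for the 21 members with under 1 kb of exon, -0.31 for the 35 with 1 to 2 kb and -0.14 for the 33 with at least 2 kb. These lengths join all annotated exons of a gene, so the classes need not sort messages by their length. Cytosolic ribosomal protein genes also stood low in this library, by a median of -0.49, as did mitochondrial ribosome genes at -0.23. The core macrophage markers had their lowest median deviation there too, at -0.20. Knockout library 4 stood at the other end, with 37 nuclear members at their highest value. The 4 nuclear-retained RNAs tested had their highest median deviation in knockout library 1, at 0.56, and their lowest in knockout library 4, at -0.69. They did not move as one. Neat1 had 132 and 119 CPM in knockout libraries 1 and 4, both above the highest control at 115 CPM. Malat1 had 140 and 73.0 CPM there, against 125 to 187 CPM in controls. Reads that met no gene were most frequent in knockout library 1 (5.68%) and least in knockout library 4 (3.63%). Control library 1 (5.43%) and knockout library 3 (5.20%) came next to the highest, with median deviations of nuclear members of -0.02 and 0.10. B and plasma cell markers, 4 of 8 listed being tested, had their lowest median deviation in knockout library 1, at -1.36. There Cd79b, at 13.6 CPM, was below every control, while Cd79a, at 0.615 CPM, lay within the control range from 0.278 to 1.21 CPM. The part of RNA quality or cell content in the nuclear members' deviations was not tested.

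Knockout library 1 was left out because nuclear members were low in it, so the rise of the nuclear values without it followed from that choice. No member passed the threshold without it, where 1.16% of all genes did. The median log2 fold change of nuclear members became 0.12, and 73 of 89 were positive. By complex the positive members were then 31 of 36 for complex I, 4 of 4 for complex II, 6 of 8 for complex III, 12 of 16 for complex IV, 15 of 17 for complex V and 5 of 8 assembly factors. An unadjusted p under 0.05 was then found for 19 of 89, all positive, where 18.1% of all genes passed. The lowest adjusted p among nuclear members was 0.0981, for Ndufb8, an accessory subunit of complex I, with a log2 fold change of 0.30. Ndufb11, of the same membrane arm, followed with 0.23 (edgeR adjusted p = 0.106). The mitochondrial median was -0.31 without this library, and all 7 stayed negative. Leaving out knockout library 4 instead, where 37 nuclear members had their highest value, gave a nuclear median of 0.02 with 55 of 89 positive.

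**Figure D5:**
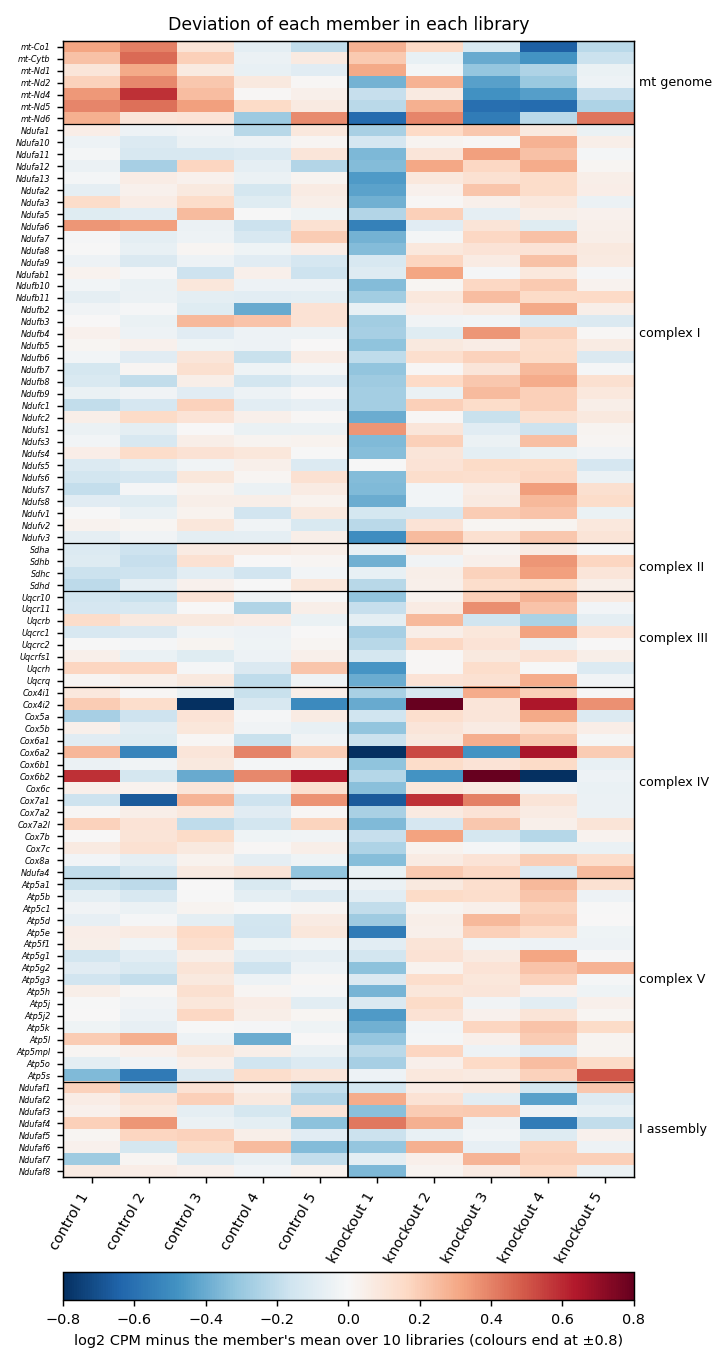
Deviation of 95 of the 96 members, each from its own mean over 10 libraries on the log2 CPM scale, members in rows by genome and complex and libraries in columns, with red above and blue below the mean. Knockout library 1 is blue for 85 of the 88 nuclear members drawn, and knockout libraries 3 and 4 are blue for the mitochondrial members.

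The mitochondrial messages did not all follow that library. In knockout library 1, mt-Nd1, mt-Co1 and mt-Cytb were above their 10-library means by 0.30, 0.28 and 0.21 on the log2 scale, while mt-Nd2, mt-Nd4, mt-Nd5 and mt-Nd6 lay at -0.38, -0.19, -0.21 and -0.62. In knockout libraries 3 and 4 all 7 were below their means, and in control libraries 1, 2 and 3 all 7 were above. Markers of other cells differed between the libraries as well. Classical monocyte markers had negative log2 fold changes for 9 of 9 genes, 6 of them called lower in knockout, with summed levels between 588 and 1638 CPM in controls and between 26.4 and 132 CPM in knockout libraries. T and NK cell markers had median deviations of 1.97, 2.21, 0.24, 0.41 and 0.89 in control libraries 1 to 5 and of -1.75, 1.76, 0.16, -2.72 and -2.86 in knockout libraries 1 to 5. The highest of these medians was in control library 2 and the lowest in knockout library 5. Of 17 such markers tested, 16 had negative fold changes, edgeR called 1, DESeq2 4 and limma-voom 2. The marker called by edgeR was the exception, Cd4, a coreceptor of helper T cells, at 61.6 ± 12.3 CPM in controls and 135 ± 35.1 CPM in knockout libraries (log2 fold change 1.13, edgeR adjusted p = 0.0223). Summed levels of the 18 listed markers other than Cd4 ran from 46.1 to 184 CPM in controls and from 4.93 to 137 CPM in knockout libraries. In knockout libraries 1 to 5 these sums were 9.05, 137, 42.0, 5.04 and 4.93 CPM, beside 184, 135, 127, 143 and 86.5 CPM of Cd4. Which cells held the Cd4 RNA was not tested. Neutrophil markers, 9 of 9 with negative fold changes and 0 called by edgeR (5 at an unadjusted p under 0.05, 3 called by DESeq2), summed to between 164 and 649 CPM and between 116 and 223 CPM. None of the listed markers of these 3 kinds of cell was without counts. The part of these cells in the mitochondrial values was not tested.

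Genes that serve the respiratory chain without belonging to it gave 0 calls by edgeR in each of 8 lists, where 1.41% of all genes were called, 15.3% had an unadjusted p under 0.05 and DESeq2 called 5.7%. Of 15 electron carrier and coenzyme Q genes, 9 were positive and 6 negative, with 1 at an unadjusted p under 0.05, Coq7, an enzyme of coenzyme Q synthesis (14.7 ± 1.49 and 19.5 ± 2.88 CPM, log2 fold change 0.40, edgeR adjusted p = 0.153). Other assembly factors of the complexes numbered 45, with 24 positive, 21 negative and 3 at an unadjusted p under 0.05. DESeq2 called 1 of them, Atpaf1, a chaperone of the ATP synthase head (8.11 ± 0.326 and 10.7 ± 0.715 CPM, log2 fold change 0.39, edgeR adjusted p = 0.0973, DESeq2 adjusted p = 0.0034). Of 18 citric acid cycle genes, 14 were positive, 3 at an unadjusted p under 0.05, and DESeq2 called 2. These were Idh2, the mitochondrial NADP-linked isocitrate dehydrogenase (120 ± 8.19 and 154 ± 13.9 CPM, log2 fold change 0.36, edgeR adjusted p = 0.0757), which limma-voom called as well, and Pcx, pyruvate carboxylase (4.33 ± 0.558 and 6.59 ± 0.928 CPM, log2 fold change 0.61, edgeR adjusted p = 0.0936).

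Genes that act on the mitochondrial genome itself had medians near 0. For 17 genes of its transcription and replication, 7 were positive and 10 negative (median -0.02), with 0 at an unadjusted p under 0.05 and 0 called by DESeq2 or limma-voom. For 20 genes of mitochondrial RNA processing, 8 were positive and 12 negative (median -0.03), with 2 at an unadjusted p under 0.05. Fastkd3, an RNA-binding protein of the FASTK family, had 8.96 ± 1.15 and 13.2 ± 2.66 CPM (log2 fold change 0.56, edgeR adjusted p = 0.123, DESeq2 adjusted p = 0.0292). Ptcd2, known for processing the cytochrome b message, had 28.1 ± 2.28 and 23.5 ± 1.77 CPM (log2 fold change -0.26, edgeR adjusted p = 0.196). Mitochondrial ribosome genes were balanced, 39 positive and 37 negative of 76, with 4 at an unadjusted p under 0.05 and 0 called by DESeq2 or limma-voom. Of 14 nuclear regulators of mitochondrial content 7 were positive, and the lowest p was that of Pparg, a lipid-sensing nuclear receptor (25.8 ± 9.19 and 13.2 ± 6.34 CPM, log2 fold change -0.96, edgeR adjusted p = 0.267). Outer membrane and mitophagy genes numbered 19, 12 of them positive, with a median of 0.05 and 1 at an unadjusted p under 0.05.

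Some promoters of nuclear members hold short sequences for factors that are known to act on respiratory chain genes, and 4 promoters are shown. Whether these sequences bear on any level reported here was not tested. RefSeq windows on GRCm38.p6, from 250 bases before to 50 bases after a start, were found for 74 of 89 nuclear members, 79 windows in all. The NRF1 motif, bound by the factor of that name and searched on both strands, was in 20 of the 79 windows (25.3%), in 9.30% of windows of all genes tested and in 4.60% of all 32851 windows. The letters CCGGAAG, of the GABP and ETS type, were in 22.8%, 16.6% and 8.86% of these windows, and AANATGGC, of the YY1 type, in 24.1%, 8.07% and 6.05%. Any of the 3 may lie in the same window, and a match is a description of letters, not a binding site. For each complex the stretch upstream of the start is printed for the member with the highest mean CPM among those with the NRF1 motif in the 250 bases before it, 5′ to 3′ on the gene's strand with each match in capitals, and no complex III window held it upstream of the start. All 4 lie on the minus strand: Ndufa8, an accessory subunit of complex I, at chr2:36049339-36049438, Sdha at chr13:74350241-74350408, Cox6a1 at chr5:115348996-115349190 and Atp5c1, the rotating shaft of complex V, at chr2:10080433-10080519.
Ndufa8: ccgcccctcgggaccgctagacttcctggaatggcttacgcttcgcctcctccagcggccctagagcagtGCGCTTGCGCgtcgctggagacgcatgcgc
Sdha: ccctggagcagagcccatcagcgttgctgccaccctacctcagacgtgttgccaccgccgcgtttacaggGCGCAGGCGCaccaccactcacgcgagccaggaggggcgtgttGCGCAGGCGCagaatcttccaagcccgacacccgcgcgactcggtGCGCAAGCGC
Cox6a1: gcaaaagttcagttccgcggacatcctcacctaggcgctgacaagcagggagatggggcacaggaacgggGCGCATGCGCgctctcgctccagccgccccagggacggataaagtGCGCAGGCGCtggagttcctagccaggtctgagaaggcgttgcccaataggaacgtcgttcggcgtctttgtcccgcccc
Atp5c1: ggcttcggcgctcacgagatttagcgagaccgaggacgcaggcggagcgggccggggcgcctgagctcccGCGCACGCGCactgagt
The Sdha stretch holds the motif 3 times, Cox6a1 2 times, and Ndufa8 and Atp5c1 once each. Their log2 fold changes were 0.04 for Sdha, 0.16 for Cox6a1 and 0.02 for both Ndufa8 and Atp5c1, none of them called.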

How the data were processed

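The deposited values were whole-number counts per gene written by STAR on GRCm39, both named in the submitters' processing notes. The STAR version and the annotation were not given in the sources used here. RNA was poly(A)-enriched and the libraries directional, per the labels' protocols. Counts on the reverse strand were taken, since that column held 96.2% to 96.5% of strand-assigned counts in each library. Reads assigned to no single gene stayed out of library sizes and tests. Those that met no gene were 3.63% to 5.68%, and multimapping ones were listed as 0. A combined table with 10 columns that name no sample was not used. Symbols came from a table of gene names, which matched 52083 of 55359 identifiers. Biotypes, exon lengths (all annotated exons of a gene joined) and transcripts came from GENCODE release 21 on GRCm38, another build than the counts.

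The gene test used edgeR 4.0.16 under R 4.3.3 (filterByExpr with a minimum count of 10, TMM, quasi-likelihood F-test without covariates on all 10 libraries, Benjamini-Hochberg adjustment, threshold 0.05). Standard errors are the size of the log2 fold change over the square root of F. CPM use TMM-scaled library sizes. Deviations of members, their mean log2 CPM and the ratio of mt-Nd5 to mt-Nd1 are log2 of CPM without a prior count. The log2 CPM in the alternative runs and in the correlation of same-numbered libraries carry a prior count of 2. Deviations of marker lists are medians of log2(CPM + 0.1) minus each gene's mean. Precision here is set by 34639808 to 43360206 counts per library and 5 libraries per genotype.

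Members and lists were chosen with earlier results of these data known. Of the listed symbols, 5 had no match in the name table. Named were all mitochondrial members, in each complex and among assembly factors the 2 nuclear members with the highest mean CPM and the 2 with the smallest p, pairs of subunit forms, the ATP synthase inhibitor, and up to 2 genes per related list with the smallest p. Of these, 1 member is not reported here by name or in the figures, and it is included in the counts and sums. Ndufb8, Ndufb11, Ndufb2, Ndufa8, Atp5c1 and Ndufa4l2 are named besides, picked once their values had been seen. On simulated counts for this comparison (3 runs, 14156 genes on average) the test found 14.6% of planted 1.5-fold changes, 47.5% of 2-fold changes and 79.1% of 4-fold changes. False ones made up 1.82% of the calls. Alternatives were DESeq2 1.42.0 and its size factors, limma-voom (limma 3.58.1) with quality weights, plain library sizes, mitochondrial genes left out of library sizes, other filters and thresholds, unstranded counts, robust dispersions, the title number as a block, summed or omitted close libraries, and each library left out in turn. Figures were drawn with matplotlib 3.10.9.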

Additional observations from a re-analysis of the deposited data

Results flagged for a closer look

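In 88 groups of 5 libraries checked for a value far from the other 4 (each named member, the means and the sums, in each genotype), 3 stood out, where chance gives about 1 in 20. Cox6b1, a subunit of complex IV, was highest in control library 3, at 226.652 CPM, with a gap of 0.733 of the group's range to the next control. Cox8a, another subunit of complex IV, was lowest in knockout library 1, at 156.762 CPM, with a gap of 0.725 of the range. The mean log2 CPM of all nuclear members was lowest in the same knockout library, at 5.72872, with a gap of 0.783 of the range. The last 2 concern the library in which 86 of 89 nuclear members lay below their mean, and no cause was tested.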

How the results depend on the processing

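For genes called, all tested genes, the count of 203 became 820 with DESeq2, 446 with limma-voom, 29 with the close control libraries summed in pairs (1 with 2, 3 with 4), 8 with knockout libraries 4 and 5 summed as well, 50 with knockout libraries 4 and 5 left out, 444 at an adjusted p under 0.1, and between 62 (without control library 2) and 267 (without knockout library 3) when 1 library was left out. It was 77, 62, 101 and 77 without control libraries 1, 2, 3 and 4, and 107 and 92 without knockout libraries 4 and 5. Nuclear members called stayed at 0 in every alternative run. Mitochondrially encoded members called were 1 with DESeq2 (mt-Nd4, -0.49) and between 0 and 1 when 1 library was left out, the 1 being mt-Nd5 at -0.68 without knockout library 2. The medians of both sets kept their signs in every alternative run, the nuclear median between 0.01 and 0.12. The mitochondrial minus nuclear difference in mean log2 CPM kept its sign too. Most runs could not test it, because the scaling of a library all but cancels in it and the gene test does not enter it. With 1 library left out at a time it ran from -0.46 to -0.28.

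With the title number as a block the count was 55 genes, and 0 members were called. Same-numbered libraries correlated between -0.529 and 0.344 in their deviations, so the numbers were not taken as pairs, and only 1 of 5 controls correlated best with its own number. Ndufaf3 was -0.00884 under the block.

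The sign of some named members changed, mt-Co1 and mt-Nd6 among them, and the cause was not tested. With limma-voom mt-Nd6 was 0.0316, Cox6a2 0.0209 and Cox7a2l 0.0397. With knockout libraries 4 and 5 left out mt-Co1 was 0.00386 and Sdhb -0.0768. Cox7a2 was 0.00518 with plain library sizes. Ndufaf3 was -0.00642 with at least 1 CPM in 5 libraries and -0.0108 with control pairs summed. Leaving out 1 library at a time, Sdhb ran from -0.000363 to 0.168, Uqcrc2 from -0.0204 to 0.0637, Cox4i1 from -0.0254 to 0.114, Cox6b1 from -0.00304 to 0.097, Ndufaf3 from -0.0525 to 0.0762, Cox6a2 from -0.219 to 0.17, Cox7a2 from -0.0478 to 0.0399 and Cox7a2l from -0.11 to 0.0275.

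The widest intervals were those of the sparse forms Cox4i2, Cox6a2, Cox6b2 and Cox7a1, and whether counting error or spread between libraries sets them was not tested. Shared sequence limits mt-Co1, mt-Nd4 and 20 nuclear members with at least 10% of their windows in another gene. Control libraries 3 and 4, and 1 and 2, resembled each other more closely than other pairs. Knockout libraries 4 and 5, the closest pair of their genotype, were less alike than control library 3 and knockout library 2.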

Other observations

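The complex I messages mt-Nd5 and mt-Nd1 did not keep a fixed ratio, a pattern chosen after its values were seen. The log2 ratio of mt-Nd5 to mt-Nd1 was -0.76, -0.91, -0.79, -0.84 and -0.88 in control libraries 1 to 5 and -1.57, -0.75, -1.35, -1.42 and -1.25 in knockout libraries 1 to 5. Knockout library 2 lay with the controls and the other 4 knockout libraries below them.

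Ndufb1-ps, dropped from the members as a pseudogene by name although its annotated biotype is a noncoding RNA at a bidirectional promoter, had 57.3 ± 3.10 CPM in controls and 48.8 ± 5.98 CPM in knockouts (log2 fold change -0.23, edgeR adjusted p = 0.272). Usmg5, the older symbol of a small ATP synthase subunit that the prefix Atp5 misses, had 59.8 ± 2.63 and 54.9 ± 6.16 CPM (log2 fold change -0.12, edgeR adjusted p = 0.529).

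Cytosolic ribosomal protein genes had negative log2 fold changes for 77 of 81, with a median of -0.16. By edgeR 0 were called, 8 had an unadjusted p under 0.05, where 15.3% of all genes did, and DESeq2 and limma-voom called 0. Without knockout library 1 the median was -0.07.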
